A study of Homo sapiens with 6 samples.

Results

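The COMMD genes (COMMD1 to COMMD10) encode the 10 proteins that carry the COMM domain, and all 10 were found among the 57773 genes of the count table. They were measured by RNA-sequencing in HEK293, an established human embryonic kidney line, in 3 groups of biological duplicates. EV cells received the Cas9 plasmid PX459 as an empty vector, sgZNF146 cells the same plasmid with 4 guides against ZNF146, and sgZNF507 cells the plasmid with 4 guides against ZNF507. All groups passed through 36 h of puromycin and were harvested 2 weeks after transfection as whole populations, with no cloning step described. The genes were listed by family name, and the family was chosen by the measured counts of one member, COMMD9, in sgZNF507 against EV. Values of the members that involve the sgZNF507 libraries are therefore given as a description, without a test.

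COMM-domain proteins assemble into a ring that holds one copy of each member, and the ring is tied by the coiled-coil proteins CCDC22 and CCDC93 to Retriever, a trimer of VPS35L, VPS26C and VPS29. The whole assembly, called Commander, sits on endosomes and returns receptors and transporters to the cell surface instead of letting them pass on to lysosomes. Its cargo is picked up by the sorting nexin SNX17, and the actin-nucleating WASH complex works at the same membrane. COMMD1, the founding member, is known for copper homeostasis and for restraint of NF-kB, and COMMD9 for endosomal sorting of Notch receptors.

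Library totals ranged from 22724439 to 28524025 counts. ZNF507 itself had 47.2 and 48.7 CPM (counts scaled to the normalized library size) in sgZNF507, below 72.0 and 75.5 in EV and 71.3 and 73.3 in sgZNF146. ZNF146 had 99.2 and 103 CPM in sgZNF146, 115 and 105 in EV and 88.4 and 101 in sgZNF507, so its RNA level gives no check of the sgZNF146 label. The HEK293 markers VIM, KRT18, KRT8, NEFM and PAX2 were counted at least 139 times in each library. PTPRC, CD3E, ALB and HBB, which mark blood and liver cells, had at most 6 counts in any library.

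Because COMMD9 was the member that stood apart, the sequence before its start is shown first. COMMD9 (ENSG00000110442) is on chromosome 11 (GRCh37, positions 36290834 to 36310999, minus strand), with 6 exons in the canonical transcript. No other annotated gene overlaps it. The 225 bases before the annotated gene, chr11:36311000-36311224 of GRCh37, come from the RefSeq promoter window of COMMD9 (GRCh38.p14), which matched this place once. Capitals mark CACGTG, the palindromic E-box core that basic helix-loop-helix factors such as MYC, USF and TFEB recognize:

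COMMD9, chr11:36311000-36311224, minus strand: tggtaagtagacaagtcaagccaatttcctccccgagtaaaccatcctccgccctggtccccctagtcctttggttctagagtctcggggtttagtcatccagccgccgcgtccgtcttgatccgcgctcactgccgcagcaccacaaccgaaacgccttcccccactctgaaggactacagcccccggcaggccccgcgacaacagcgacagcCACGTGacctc

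The E-box begins 36 bases before the RefSeq start of COMMD9. RefSeq windows of 250 bases before to 50 after a start were given for 9 of the 10 members (14 windows in all; COMMD5 had none). CACGTG occurred in 5 of these 14 windows, 1 each of 5 members, beside 7.26% of 35116 windows of all genes and 8.92% of 17335 windows of tested protein-coding genes. The motif was searched with earlier results of these data known, and a match is not a bound site. By GENCODE gene positions, the COMMD10 site lies inside the gene, which begins at 115420713, and the COMMD4 site spans the gene start at 75628361. Beside COMMD9, CACGTG was found before the RefSeq starts of the following members (GRCh37, 30 bases each, E-box in capitals), which are shown so that the bases around it can be compared:

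COMMD10, chr5:115421117-115421146, plus strand: gtgctgccgaatCACGTGgaacggtattcc
COMMD3, chr10:22605297-22605326, plus strand: cgcggcgcgtgtCACGTGgtgtgcgtgtcg
COMMD4, chr15:75628347-75628376, plus strand: gttagtccaagtCACGTGatcgtcgactca
COMMD8, chr4:47465724-47465753, minus strand: gccggcgagagtCACGTGggcgagtcgtag

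In COMMD8 a further CACGTG begins 21 bases after the RefSeq start. CCGGAAG, the core of ETS factor sites, was found on either strand in 2 of the 14 member windows, of COMMD2 and COMMD10. It was in 10.3% of all windows and in 15.1% of those of tested protein-coding genes. Among the members with a window, AAGATGGCG, a YY1-type element searched likewise, occurred only in COMMD10 (1.75% of all windows, 2.98% of those of tested protein-coding genes). GCGCATGCG, an NRF1-type element, occurred only in COMMD6 (1.92% and 2.77%), and TATAAA only in COMMD10 (11.5% and 6.86%).

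COMMD9 was counted 875 and 969 times in EV, 810 and 830 times in sgZNF146 and 1614 and 1878 times in sgZNF507. In normalized counts this was 35.1 and 35.1 CPM in EV, 31.9 and 33.0 in sgZNF146 and 70.0 and 64.8 in sgZNF507. Both sgZNF507 libraries thus lay far above the other 4, which stayed within a narrow band. The means were 35.1 ± 0.070 CPM in EV, 32.5 ± 0.76 in sgZNF146 and 67.4 ± 3.69 in sgZNF507 (SD, n = 2 each). The level in sgZNF507 was 1.92-fold that in EV (log2 fold change 0.94, standard error 0.078), with ratios of 1.99 between the libraries of replicate 1 and 1.85 between those of replicate 2. Against sgZNF146 the log2 difference was 1.05 (standard error 0.079), a comparison that uses the same sgZNF507 libraries. In bulk RNA, more RNA per cell and a larger share of cells with the RNA cannot be told apart.

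**Figure D1:**
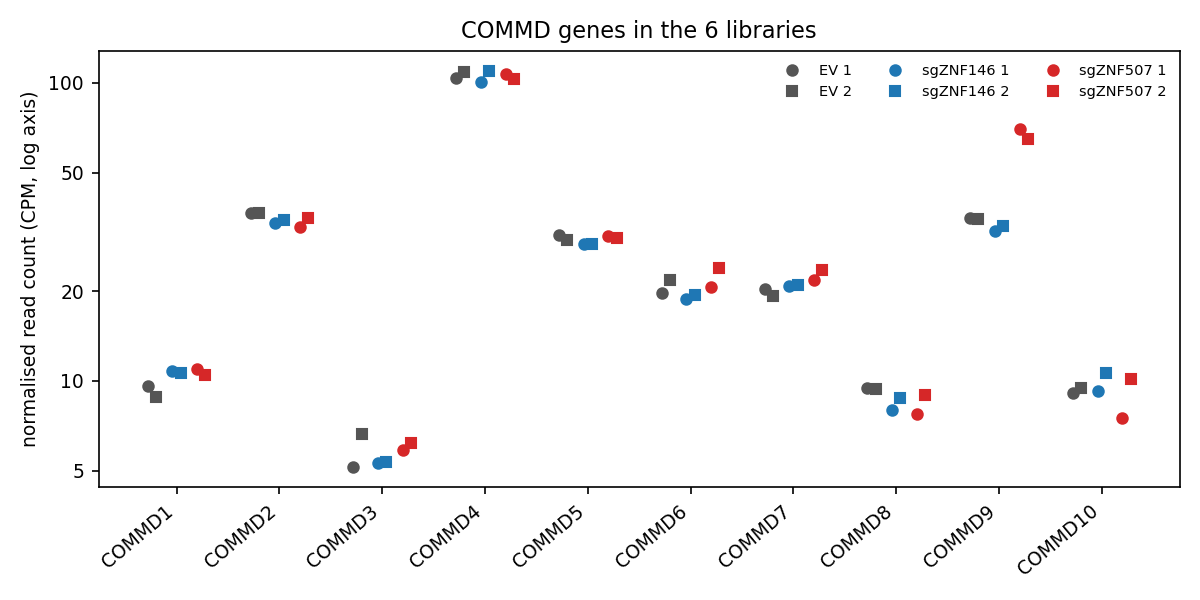
Normalized read counts (CPM, log axis) of the 10 COMMD genes, with circles for replicate 1 and squares for replicate 2 of EV (gray), sgZNF146 (blue) and sgZNF507 (red). COMMD9 is the gene whose sgZNF507 libraries (70.0 and 64.8 CPM) are set apart from the other 4 (31.9 to 35.1 CPM).

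The other 9 members did not share this shift. Their log2 fold changes in sgZNF507 against EV ran from -0.17 (COMMD8) to 0.22 (COMMD1), with a median of -0.0029. The median absolute change of these 9 genes was 0.10, beside 0.095 over the 22010 genes tested. The libraries of sgZNF507 and EV did not overlap in 5 members, 3 higher (COMMD1, COMMD7 and COMMD9) and 2 lower (COMMD2 and COMMD8), and 29.3% of all genes had no overlap in either direction. Nothing is read from this count, since the contrast chose the family.

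**Figure D2:**
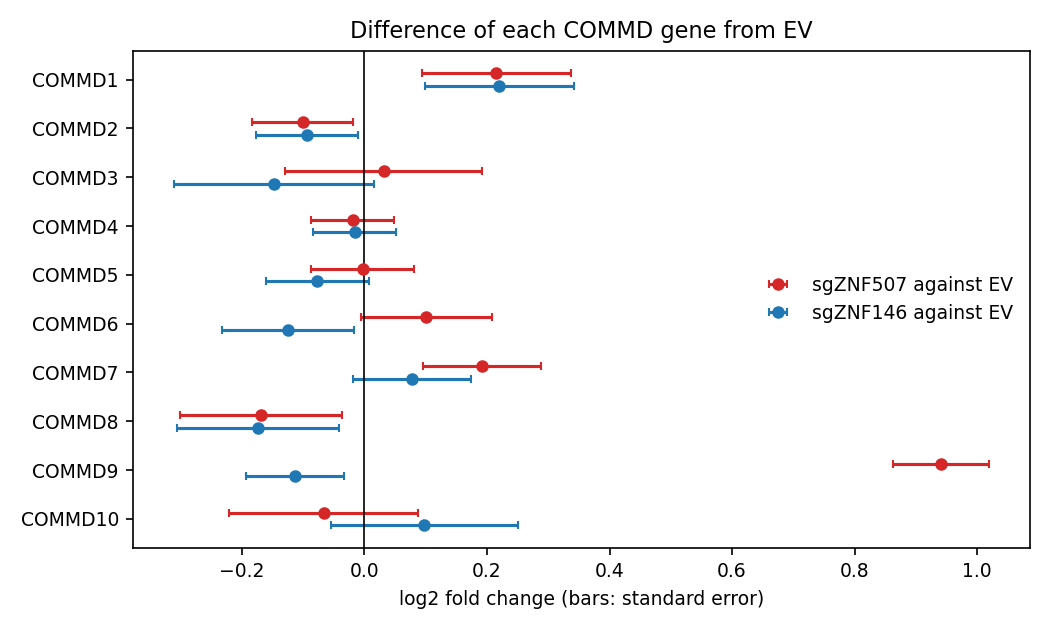
Log2 fold change of each COMMD gene against EV in sgZNF507 (red) and sgZNF146 (blue), with bars for the standard error of the fit over 6 libraries. COMMD9 in sgZNF507 is at 0.94, while all other points lie between -0.17 and 0.22.

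Members known from signaling and metal handling were followed one by one. COMMD1 had 9.60 and 8.83 CPM in EV, 10.8 and 10.6 in sgZNF146 and 10.9 and 10.5 in sgZNF507. Both edited groups lay above EV by a like amount, with log2 fold changes of 0.22 (standard error 0.12) in sgZNF507 and 0.22 (standard error 0.12) in sgZNF146. Here and for the other members, both are taken against the same EV libraries, so they are not independent. For sgZNF146 the edgeR adjusted p was 1.00. In the GENCODE gene models used here, COMMD1 exons overlap the pseudogene RPSAP26 on the same strand over 33.6% of their bases. The COMMD1 counts are therefore uncertain. COMMD7, another member linked to NF-kB, had 20.3 and 19.3 CPM in EV, 20.9 and 20.9 in sgZNF146 and 21.7 and 23.5 in sgZNF507. Each edited library was above both EV libraries, by a log2 fold change of 0.19 (standard error 0.096) in sgZNF507 and 0.078 (standard error 0.097) in sgZNF146. In the same models COMMD7 shares 29.4% of its exonic bases with an unnamed protein-coding gene on the same strand.

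COMMD3 and COMMD8 are known to act together as an adaptor for chemoattractant receptors. COMMD8 had 9.48 and 9.40 CPM in EV, 8.0 and 8.74 in sgZNF146 and 7.77 and 8.98 in sgZNF507. It was lower than EV in each edited library, with log2 fold changes of -0.17 in both sgZNF507 (standard error 0.13) and sgZNF146 (standard error 0.13). COMMD3 had 5.14 and 6.62 CPM in EV, 5.32 and 5.33 in sgZNF146 and 5.86 and 6.18 in sgZNF507. Its EV libraries differed 1.29-fold and enclosed the other 4, so that both edited groups overlapped EV, while both sgZNF507 libraries lay above both sgZNF146 libraries. COMMD3 shares 31.1% of its exonic bases with the readthrough gene COMMD3-BMI1, whose row held 0 to 2 counts per library, and reads on the shared exons may be missing from either row.

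COMMD6, the shortest protein of the family, had 19.8 and 21.9 CPM in EV, 18.9 and 19.4 in sgZNF146 and 20.7 and 24.0 in sgZNF507. It was lower than EV in both sgZNF146 libraries (log2 fold change -0.12, standard error 0.11), and in sgZNF507 it overlapped EV (0.10, standard error 0.11). COMMD10 had 9.12 and 9.48 CPM in EV, 9.26 and 10.7 in sgZNF146 and 7.51 and 10.1 in sgZNF507. The sgZNF507 libraries differed 1.35-fold, the widest gap between replicates in the family, and spanned both EV values.

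COMMD2, COMMD4 and COMMD5 were among the 4 members with the highest normalized counts in EV, beside COMMD9. COMMD2 had 36.5 and 36.5 CPM in EV, 33.8 and 34.6 in sgZNF146 and 32.7 and 35.3 in sgZNF507. It was thus lower in both edited groups, by log2 fold changes of -0.094 (sgZNF146) and -0.10 (sgZNF507), each with a standard error of 0.083. COMMD4 had 104 and 109 CPM in EV, 101 and 110 in sgZNF146 and 107 and 103 in sgZNF507, and its groups overlapped. COMMD5 had 30.9 and 29.8 CPM in EV, 28.8 and 28.8 in sgZNF146 and 30.5 and 30.1 in sgZNF507, and sgZNF507 overlapped EV. The exons of COMMD5 overlap those of ZNF7 on the opposite strand over 13.3% of their bases. The libraries were strand-specific, but whether strand was used in counting is not given in the sources used here. Reads of the annotated pseudogenes were few, with 10 to 25 counts per library for COMMD4P1, 0 to 3 for COMMD4P2 and 0 for COMMD5P1.

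In sgZNF146 against EV, a comparison that did not choose the family but shares its EV libraries, 0 of the 10 members were past the threshold (edgeR quasi-likelihood test, Benjamini-Hochberg adjusted). The background was 0% of the 22010 genes tested. No member had an unadjusted p under 0.05 (2.43% of all genes did), and DESeq2 also called 0 members and 0% of all genes. Log2 fold changes ran from -0.17 (COMMD8) to 0.22 (COMMD1), with 7 members lower, 3 higher and a median of -0.085, beside -0.0013 over all genes. The libraries did not overlap in 7 members, 2 higher and 5 lower, where 28.6% of all genes had no overlap. COMMD9 itself was lower in both sgZNF146 libraries than in both EV libraries, at a log2 fold change of -0.11 (SE 0.080, edgeR adjusted p = 1.00). Its 95% interval ran from -0.29 to 0.061. The widest interval was that of COMMD3, from -0.50 to 0.21, and the narrowest that of COMMD4, from -0.16 to 0.13.

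The share of COMMD9 in the counts of the family does not depend on how libraries are scaled. COMMD9 made up 12.6% of the family's counts in EV replicate 1 (95% Wilson interval 11.8 to 13.4) and 12.3% in replicate 2 (11.6 to 13.0). In sgZNF146 it made up 11.9% (11.1 to 12.7) and 11.7% (11 to 12.5). In sgZNF507 it made up 22.3% (21.3 to 23.2) and 20.5% (19.7 to 21.3), above each other library. These intervals cover counting error only. The ratio of COMMD9 to COMMD2 counts, which was close to 1 in EV (0.964 and 0.960) and sgZNF146 (0.945 and 0.953), was 2.14 and 1.84 in sgZNF507. COMMD2 was itself lower in both sgZNF507 libraries than in EV (log2 fold change -0.10), which enters this ratio. Share and ratio restate the COMMD9 counts that chose the family.

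**Figure D3:**
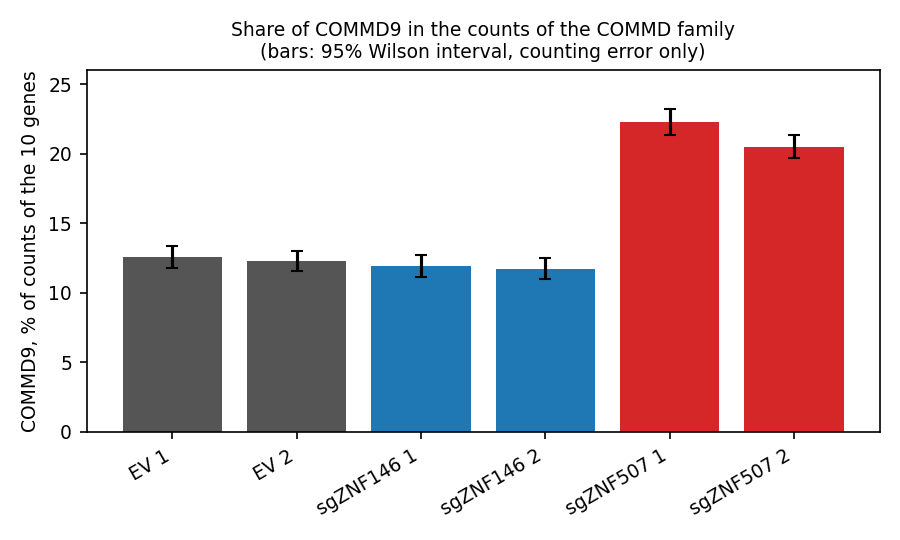
COMMD9 as a percentage of the counts of the 10 COMMD genes in each library, with 95% Wilson intervals for counting error. The EV and sgZNF146 libraries lie between 11.7% and 12.6% and the sgZNF507 libraries at 22.3% and 20.5%.

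Summed over the family, the level was 283 ± 4.32 CPM in EV, 275 ± 9.63 in sgZNF146 and 316 ± 1.42 in sgZNF507 (SD, n = 2 each). Without COMMD9 the sums were 248 ± 4.39, 243 ± 8.87 and 248 ± 5.10 CPM, which differed by less than the spread between replicates. The family total was thus higher in sgZNF507 with COMMD9 counted and not without it.

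Levels between members can be compared only per length, and the length used changed the order. Both lengths came from GENCODE models, while the paper names Ensembl models for mapping. Exons absent from the models behind the counts would add length but no counts, which would lower the level over all exons. Over all annotated exons, COMMD4 was highest in EV with 16 ± 0.56 CPM per kb and COMMD3 lowest with 2.03 ± 0.36 (SD, n = 2 each). Between them, from high to low, were COMMD5 (10.4 CPM per kb), COMMD7 (9.69), COMMD2 (7.45), COMMD6 (7.18), COMMD8 (5.37), COMMD9 (5.32), COMMD1 (4.18) and COMMD10 (3.81). Of these neighbors in the order, COMMD2 and COMMD6 overlapped between their EV libraries. By the length of the canonical transcript, COMMD4 was again highest (119 ± 4.15 CPM per kb), followed by COMMD5 (21.2), COMMD7 (14.6), COMMD1 (13.3), COMMD6 (12.5), COMMD9 (11.9), COMMD2 (9.88), COMMD10 (6.48), COMMD8 (6.46) and COMMD3 (6.35). On this scale COMMD1 and COMMD6, COMMD6 and COMMD9, COMMD10 and COMMD8, and COMMD8 and COMMD3 overlapped. COMMD9 held rank 7 in EV and rank 4 in sgZNF507 over all exons, and ranks 6 and 2 by the canonical transcript. The last rank of COMMD3 is uncertain. It shares 904 exonic bases with COMMD3-BMI1, beside a canonical length of 926, and how reads on shared exons were counted is not known. The ranks of COMMD1 and COMMD7, whose exons overlap other genes on the same strand in the GENCODE models, are uncertain likewise. Whether the Ensembl models named by the paper hold these 2 overlaps was not checked.

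**Figure D4:**
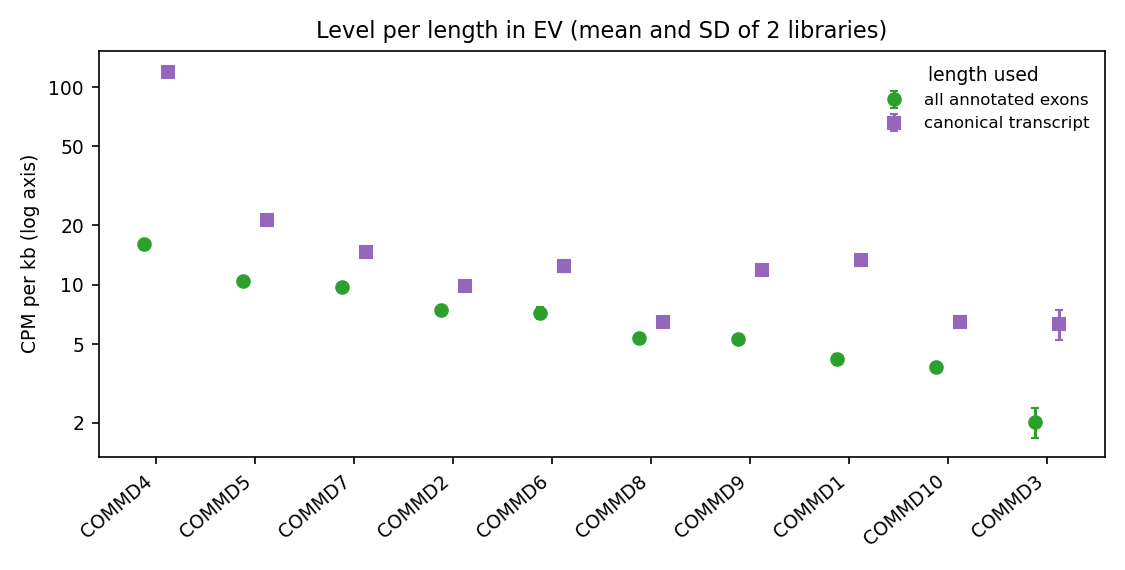
Level per length (CPM per kb, log axis) of the 10 members in EV, over all annotated exons (green circles) and over the canonical transcript (purple squares), with the mean and SD of 2 libraries, most bars being smaller than the symbols. COMMD4 is highest and COMMD3 lowest on both scales, from 16 to 2.03 and from 119 to 6.35 CPM per kb. The level of COMMD3 is uncertain, since it shares exons with COMMD3-BMI1. Lengths are from GENCODE models, which may differ from those behind the counts.

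Of the 6 Commander partner genes (CCDC22, CCDC93, Retriever subunits and DENND10), 0 were called against EV in sgZNF507 and 0 in sgZNF146. This held for edgeR's quasi-likelihood test, for DESeq2 and at an unadjusted p under 0.05. Over all genes, the shares in sgZNF507 were 0.182%, 0.198% and 3.39% in that order, and in sgZNF146 0%, 0% and 2.43%. With 6 genes, a count of 0 is near these shares, so nothing is read from it. Log2 fold changes in sgZNF507 ran from -0.15 to 0.080 with a median of 0.0049, beside -0.0032 over all genes. CCDC22, which clamps the ring, had 39.6 and 42.0 CPM in EV and 40.5 and 45.7 in sgZNF507 (log2 fold change 0.080, 95% interval -0.11 to 0.27). CCDC93, its coiled-coil partner, had 69.9 and 70.1 CPM in EV and 70.3 and 75.8 in sgZNF507 (0.062, interval -0.087 to 0.21), both above the EV libraries.

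Among the Retriever subunits, VPS35L, the large scaffold, had 49.4 and 48.9 CPM in EV and 49.0 and 51.3 in sgZNF507. VPS26C, the arrestin-like subunit, had 42.5 and 43.8 CPM in EV and 43.3 and 41.8 in sgZNF507. VPS29, which is shared with retromer, had 27.5 and 23.8 CPM in EV and 23.0 and 26.6 in sgZNF507. The libraries of these 3 genes overlapped between the groups. DENND10, a further Commander subunit, was lower in both sgZNF507 libraries (21.8 and 23.9 CPM) than in EV (24.9 and 25.9), at a log2 fold change of -0.15 (SE 0.093, edgeR adjusted p = 1.00).

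Further genes of the route were taken from fixed lists. Over the partners, SNX17 and retromer, the WASH complex, recycled cargo (such as LRP1, ITGB1, NOTCH2 and the copper pumps ATP7A and ATP7B) and genes of NF-kB, cullin and copper handling, 36 of 37 listed genes were tested. Of these, 0 were past the threshold of edgeR's quasi-likelihood test in sgZNF507 against EV, where 0.182% of all genes were. In sgZNF146 against EV the count was also 0, with 0% of all genes, and in sgZNF507 against sgZNF146 it was 0, with 0.173%. DESeq2 called 0 of them in either comparison with EV, where it called 0.198% of all genes in sgZNF507. Their median log2 fold change was 0.018 in sgZNF507 and 0.012 in sgZNF146. At an unadjusted p under 0.05 there were 2 in sgZNF507, WASHC5 (log2 fold change 0.24) and SOD1 (-0.16), and 2 in sgZNF146, WASHC3 (0.37) and CUL1 (-0.21), 4 genes picked out once their values were known. Over all genes tested, 3.39% had such a p in sgZNF507 and 2.43% in sgZNF146. NOTCH2, whose protein is sorted with COMMD9, had 468 and 424 CPM in EV and 474 and 452 in sgZNF507, and the groups overlapped. SNX17 had 90.6 and 88.0 CPM in EV and 90.9 and 91.0 in sgZNF507 (log2 fold change 0.026, standard error 0.079). SNX31, a relative of SNX17, had 5 to 9 counts per library and was not tested.

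The genes that flank COMMD9 on chromosome 11 were measured in the same fit. The nearest tested protein-coding genes were LDLRAD3 (37.1 kb away) and TRIM44 (451 kb) on one side and PRR5L (6.84 kb) and TRAF6 (194 kb) on the other. Their log2 fold changes in sgZNF507 against EV were -0.066, -0.050, -0.19 and 0.12 in that order, and each had an adjusted p of 1.00 by edgeR's quasi-likelihood test. The sgZNF507 libraries of TRAF6 lay above those of EV, and the other 3 genes overlapped. PRR5L, the closest, had under 3 CPM in each library and a wide 95% interval of -0.77 to 0.39.

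The genes most like COMMD9 over the 6 libraries lay elsewhere in the genome. Likeness was measured as the Euclidean distance between centered log2(CPM + 0.5) values, over 14743 other protein-coding genes, with the contrast that chose the family included. The closest were GNPTG, a subunit of the enzyme that starts the mannose 6-phosphate tag (distance 0.30), and SPNS1, a lysosomal lipid transporter (0.34). NAGPA, which uncovers the same tag (0.34), GATB, part of mitochondrial glutaminyl-tRNA formation (0.36), and VPS11, a subunit of the HOPS and CORVET tethers (0.37), followed. NAGPA, for example, had 28.8 and 35.2 CPM in EV, 29.6 and 33.4 in sgZNF146 and 69.9 and 73.4 in sgZNF507. The other COMMD genes were at distances from 0.99 (COMMD6) to 1.36 (COMMD10), where COMMD6 held rank 841 and COMMD10 rank 13304. These distances are a description over libraries that share their groups, and by Pearson's correlation 1 of the 5 closest genes (VPS11) was again among the 5 closest.

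**Figure D5:**
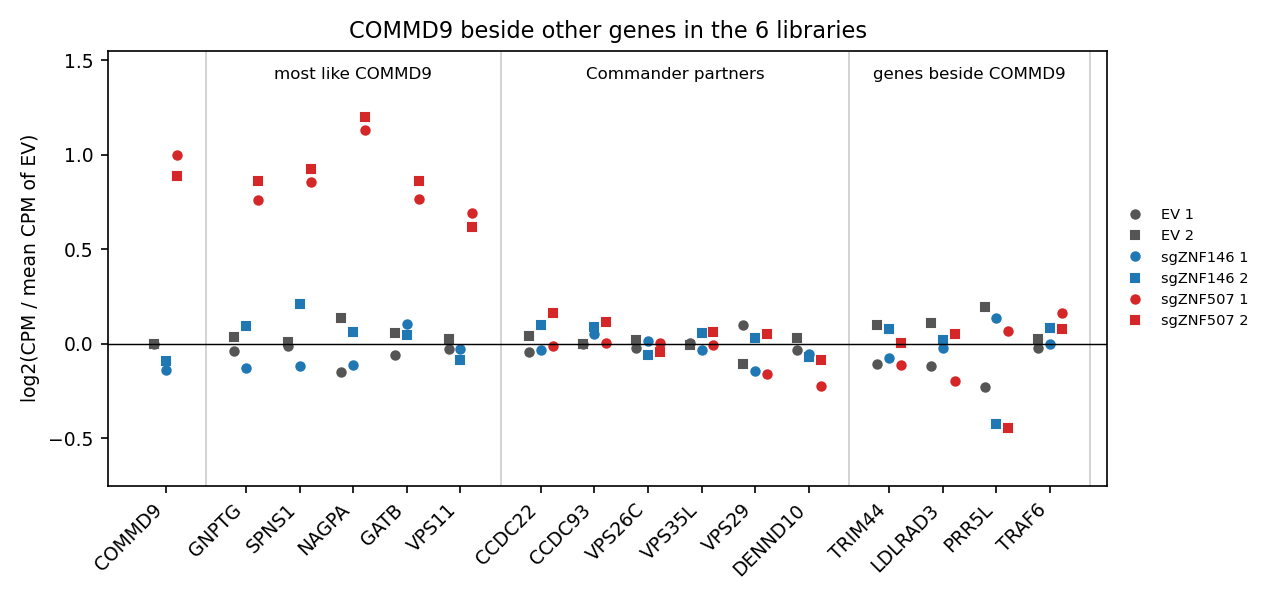
Log2 ratio of each library to the mean CPM of EV for COMMD9, the 5 genes most like it, the 6 Commander partners and the 4 genes beside COMMD9, with circles for replicate 1 and squares for replicate 2 of EV (gray), sgZNF146 (blue) and sgZNF507 (red). The sgZNF507 libraries of the partners and flanking genes lie among the others except for small offsets, as in DENND10 (log2 fold change -0.15), while those of COMMD9 are near 0.94.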

How the data were processed

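HEK293 RNA from 6 libraries (EV, sgZNF146 and sgZNF507, 2 each) was grouped by the treatment and replicate in the sample titles. Per the methods and the submitters' processing notes, reads were clipped, cleared of ribosomal reads and mapped to hg19 with TopHat2. The deposited values are raw counts per Ensembl gene from featureCounts, which the authors neither normalized nor pooled. Versions of these tools are not given in the sources used here.

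Gene models came from a GENCODE annotation on GRCh37 (96.1% of 57773 identifiers matched) and promoter windows from RefSeq. The paper names Ensembl gene models for mapping, so lengths and overlaps given here may differ from those behind the counts. PECAM1 was not analysed here. Counts were filtered with filterByExpr (22010 genes kept), scaled by TMM and tested in one fit of all libraries with edgeR 4.0.16 (glmQLFit, glmQLFTest) under R 4.3.3, with Benjamini-Hochberg adjustment over all genes and a threshold of 0.05. Standard errors were derived from the F statistic and intervals from the t distribution, and both are approximate. CPM used TMM library sizes. Steps were tested on simulated data. Alternatives were RLE and upper-quartile scaling, no filter, at least 10 counts per library, DESeq2 1.42.0, the 4 libraries compared, a replicate block and each library left out.

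The members, lists, motifs and rules for named genes were chosen with earlier results of these data known. Named are all members, other COMMD rows, all Commander partners, list genes past the threshold, the 2 tested protein-coding genes on each side of COMMD9 and the 5 genes closest to it in pattern. No list gene passed the threshold against EV, and SNX17, SNX31, NOTCH2, WASHC5, SOD1, WASHC3 and CUL1 are named outside this rule, after their values were seen. Figures were drawn with matplotlib 3.10.9.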

Additional observations from a re-analysis of the deposited data

How the results depend on the processing

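No member was called in sgZNF146 against EV, and no Commander partner in either comparison with EV, under other scalings, filters and tests. Over all genes, the main fit called 0% in sgZNF146 and 0.182% in sgZNF507. Counts of 0 in such short lists are near these shares and say little about the members or partners. The log2 fold change of COMMD9 in sgZNF507 against EV lay between 0.94 and 0.95 under other scalings, filters and tests. With each library left out it ranged from 0.88 (without sgZNF507 replicate 1) to 1.01 (without sgZNF507 replicate 2). Deviations of replicate 1 from the group mean correlated between groups with r from 0.138 to 0.176 across genes, so the numbers are shared by name and at most weakly paired. With the replicate block the value for COMMD9 was 0.94, 0 members were called in sgZNF146, and over all genes the calls rose from 40 to 121 in sgZNF507 and from 0 to 33 in sgZNF146. In sgZNF507 against sgZNF146 the block called 1 of 36 list genes, from the NF-kB, cullin and copper list, and 196 of 22010 genes tested. Without the block these counts were 0 and 38. Small differences turned with single libraries. COMMD3 in sgZNF146 went from -0.15 to 0.044 without EV replicate 2, and COMMD10 in sgZNF507 from -0.066 to 0.12 without sgZNF507 replicate 1, and the signs of COMMD4 (both comparisons), COMMD5 and COMMD6 (sgZNF507), COMMD3 (sgZNF507) and COMMD10 (sgZNF146) also turned. COMMD5 in sgZNF507 had the other sign under 8 of 13 alternatives, all close to 0. The summed family level in EV was 282 to 283 CPM under other scalings and 280 to 286 with an EV library left out. With 2 libraries a group, differences that were not called may still be present. The printed 95% intervals are not adjusted for the number of genes and give no limit of detection. For example, WASHC5 in sgZNF507 against EV (log2 fold change 0.24, 95% interval 0.084 to 0.39) was not past the threshold.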
